A study of Mus musculus with 10 samples.

Results

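The core circadian clock loop was followed in the left ventricle of infarcted mouse hearts as 9 genes: the activators Arntl, Clock and Npas2, the repressors Cry1, Cry2, Per1, Per2 and Per3, and Nfil3, a repressor of D-box genes. The 9 genes were taken by name from a table of 49585 rows. All 9 were present, and all 9 were among the 12906 genes that passed the filter on low counts. They were chosen for how they differed between the libraries described here, so their differences between groups are given as a description, with no test.

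All 10 libraries came from the left ventricle of male ICR mice, an outbred stock, taken 4 weeks after an experimental myocardial infarction. After the infarction 5 hearts are labelled as given PBS, a buffered saline, and 5 as given 4FM3, a treatment that the labels do not spell out further in a series on direct reprogramming by adeno-associated virus. The labels also give 8 weeks as a time, without saying from when it is counted. No uninjured heart and no heart given an empty vector was part of the comparison, and the hour of the day at which the hearts were taken is not given in the sources used here. Since the labels do not tie libraries to animals, the errors and p-values rest on differences from library to library, some of which may be technical.

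The clock loop runs in nearly every cell. The protein of Arntl (also called BMAL1) pairs with CLOCK or with its paralog NPAS2 and activates genes that carry E-boxes in their control regions, among them the Per and Cry genes. PER and CRY proteins then gather, enter the nucleus and repress the pair that made them, so that the cycle takes about a day. A second loop acts through a different DNA element, the RORE, at which ROR proteins activate and REV-ERB proteins (genes Nr1d1 and Nr1d2) repress Arntl, Npas2, Nfil3 and, in part, Cry1. A further element, the D-box, is activated by DBP, TEF and HLF and repressed by NFIL3. In mouse heart, as in other tissues, Arntl and Npas2 RNA peak at the opposite side of the day from Per RNA.

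The elements named above can be read in the promoters of several members. The windows shown are 300 bases long, 250 before and 50 after a start of transcription. They are from RefSeq on build GRCm38.p6, which has the coordinates of mm10. At least 1 window was at hand for 8 of the 9 members. None was at hand for Per2, so its promoter was not searched. Capitals mark matches, on either strand, to 4 sets of letters: the E-box CACGTG, its variant CACGTT, the D-box TTATGNAA and a RORE written AGTAGGTNA. They are shown because Arntl and Nfil3, with RORE letters, were higher in every 4FM3 library than in any PBS library, and Per3, with D-box letters, was lower in every one. Per1, with an E-box as well as D-box letters, had a lower mean in 4FM3, with overlapping groups. It did not pass the threshold used for all genes. Cry1, with an E-box and its variant, differed little. Among clock genes outside the members, Tef, Bhlhe41 and Ciart had E-box letters in windows not shown, and all were lower in 4FM3. With the variant alone, Nr1d1 was lower, while Cry2 and Rorb did not pass. Both genes with RORE letters were thus higher, and those with the other letters were lower or did not pass. Genes without any of the 4 went either way, with Clock and Npas2 higher and Dbp, Nr1d2, Rora and Hlf lower. The genes were chosen with results of these data known, so nothing is read from this split. The sequences run 5′ to 3′ along the strand of the gene.
Arntl, chr7:113207261-113207560, plus strand: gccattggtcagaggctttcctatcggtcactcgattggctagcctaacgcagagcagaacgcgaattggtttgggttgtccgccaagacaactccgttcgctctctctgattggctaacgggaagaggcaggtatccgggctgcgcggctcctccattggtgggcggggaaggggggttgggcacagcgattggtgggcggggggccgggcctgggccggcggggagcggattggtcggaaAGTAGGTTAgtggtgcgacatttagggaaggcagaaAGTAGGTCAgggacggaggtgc
Nfil3, chr13:52980990-52981289, minus strand: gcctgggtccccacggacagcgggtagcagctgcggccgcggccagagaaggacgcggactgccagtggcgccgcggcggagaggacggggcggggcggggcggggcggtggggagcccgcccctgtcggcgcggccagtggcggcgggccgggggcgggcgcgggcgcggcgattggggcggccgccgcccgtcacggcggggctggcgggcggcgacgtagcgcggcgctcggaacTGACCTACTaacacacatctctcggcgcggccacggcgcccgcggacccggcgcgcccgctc
Cry1, chr10:85185005-85185304, minus strand: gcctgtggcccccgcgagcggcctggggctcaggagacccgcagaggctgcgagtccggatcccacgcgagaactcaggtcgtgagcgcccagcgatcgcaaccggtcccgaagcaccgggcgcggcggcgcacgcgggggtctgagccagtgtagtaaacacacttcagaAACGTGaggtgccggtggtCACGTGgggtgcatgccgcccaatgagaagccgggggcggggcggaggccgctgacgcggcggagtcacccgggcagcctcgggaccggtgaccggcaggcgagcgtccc
Per1, chr11:69098699-69098998, plus strand: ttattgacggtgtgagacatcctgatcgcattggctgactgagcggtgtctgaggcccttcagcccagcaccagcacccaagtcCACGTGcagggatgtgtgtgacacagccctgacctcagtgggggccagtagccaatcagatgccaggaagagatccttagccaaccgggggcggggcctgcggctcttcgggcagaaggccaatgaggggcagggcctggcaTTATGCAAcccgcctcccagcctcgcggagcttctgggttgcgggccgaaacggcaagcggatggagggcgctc
Per3, chr4:151044616-151044915, minus strand: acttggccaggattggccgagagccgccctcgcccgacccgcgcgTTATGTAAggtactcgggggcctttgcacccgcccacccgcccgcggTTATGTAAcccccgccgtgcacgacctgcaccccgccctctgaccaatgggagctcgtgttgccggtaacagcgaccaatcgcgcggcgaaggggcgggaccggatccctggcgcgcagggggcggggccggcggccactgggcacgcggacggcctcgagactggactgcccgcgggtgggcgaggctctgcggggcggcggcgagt

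In the Arntl window shown the RORE letters occurred at 2 places, starting 8 bases before and at base 29 after the start. A second Arntl window, chr7:113207215-113207514, held only the first of these, AGTAGGTTA, at base 39 after its own start. In the Nfil3 window they occurred once on the opposite strand, as TGACCTACT. Of all 32851 such windows of the genome 0.591% held these RORE letters, 3.38% held the D-box letters, 7.15% the E-box and 4.68% its variant. The RORE letters are 1 spelling of the element, which fits both Arntl matches exactly, so nothing is read from their share beside Arntl. The D-box letters stood 24 bases before the start in Per1 and at 205 and 158 bases before it in Per3. A second Per1 window, at a start farther along the gene, held none of the 4, and the Cry2 window held 1 match to the E-box variant. None of the 4 was found in the windows of Clock and Npas2. A match is a description of letters in this window and not a mapped binding site.

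Expression is given as CPM, the counts of a gene relative to the library total after TMM scaling. Total counts ran from 6634159 to 7711177 per library, and the members' own counts from 12 to 1113, so each member was read well above the 3 counts that a count of 0 allows. Fold changes are those of edgeR's quasi-likelihood fit across all genes, each with its standard error (SE). Heart muscle was borne out by 8 cardiomyocyte markers, none at 0. Their summed level ran from 64793 to 87243 CPM in PBS and from 95648 to 116358 CPM in 4FM3. The sum does not tell the labelled left ventricle from other heart muscle. All 8 passed the test as higher in 4FM3. The summed level of 8 fibroblast markers, all 8 of which passed as lower, ran from 9804 to 12181 CPM in PBS and from 3924 to 6814 CPM in 4FM3. In bulk tissue, fewer cells of a type and less RNA per cell cannot be told apart, and the part of these shifts in the clock values was not tested. PBS replicates 2 and 3 carried lung transcripts, with 973.7 and 933 CPM over 8 markers, against 3.25 to 5.15 CPM in the other PBS libraries and 0.614 to 21.8 CPM in 4FM3. No lung marker was at 0 in all libraries.

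The positive arm of the loop was higher in 4FM3, and the Per genes had lower means, with overlapping groups for Per1 and Per2. Arntl (4.58-fold), Npas2 (3.67-fold) and Nfil3 (2.94-fold) stood higher, and Per3 (3.67-fold), Per2 (3.22-fold) and Per1 (2.63-fold) lower, while Clock, Cry1 and Cry2 differed by 1.34-fold or less. By the threshold used for all genes, an adjusted p of 0.05, 4 members counted as higher (Arntl, Clock, Npas2 and Nfil3) and 2 as lower (Per2 and Per3). Over all tested genes 43.0% counted as changed, 20.9% as higher and 22.1% as lower (2700 and 2846 genes, against 1540 and 4967 with library size alone as scaling). Since the members were chosen on this comparison nothing is read from their share. The 5 values of each group lay wholly apart for 5 members, 4 higher and 1 lower, beside 27.5% of all tested genes. Without PBS replicate 1 the count of members lower was 4, with Per1 and Cry2 added, and without 4FM3 replicate 5 it was 3, with Per1 added, as with DESeq2 and limma-voom. With the replicate number as a block it was 4.

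**Figure D1:**
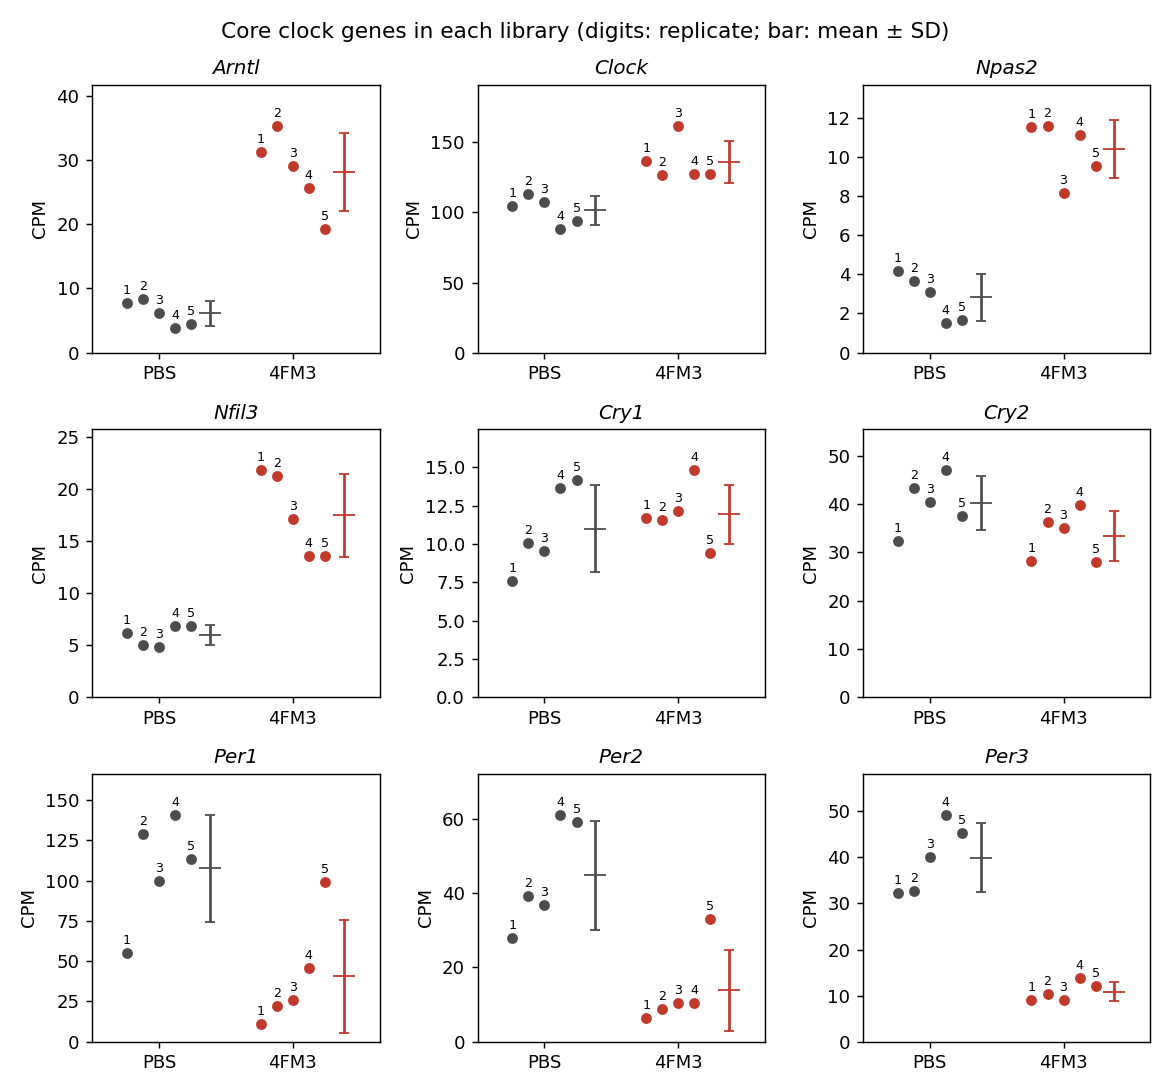
Expression of the 9 core clock genes in each library, in CPM on an axis that starts at 0. Dots are libraries numbered by replicate, and the bar beside them is the mean ± SD of 5 libraries. Arntl, Clock, Npas2 and Nfil3 lie higher in every 4FM3 library than in any PBS library and Per3 lower, while 4FM3 replicate 5 reaches the PBS range for Per1 and Per2.

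Arntl encodes the shared partner of CLOCK and NPAS2 and is the one activator without which the mouse clock stops (ENSMUSG00000055116.8, chromosome 7, 113207465 to 113314126, plus strand). Its level in PBS replicates 1 to 5 was 7.68, 8.43, 6.19, 3.80 and 4.51 CPM. In 4FM3 replicates 1 to 5 it was 31.3, 35.3, 29.0, 25.6 and 19.2 CPM. The lowest 4FM3 library stood above the highest PBS library, and replicates 4 and 5 were the lowest of both groups. The means were 6.12 ± 1.98 and 28.1 ± 6.09 CPM (SD, n = 5 each), a log2 fold change of 2.19 with an SE of 0.219. Only 1 of the 12906 tested genes had a higher fitted log2 fold change, so that Arntl was number 2 in that order.

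Npas2, the paralog of Clock that can stand in for it, was also higher in 4FM3 (ENSMUSG00000026077.15, chromosome 1, 39193731 to 39363236, plus strand). Its level in PBS replicates 1 to 5 was 4.17, 3.65, 3.10, 1.52 and 1.67 CPM. Replicates 1 to 5 of 4FM3 held 11.5, 11.6, 8.17, 11.1 and 9.54 CPM. The groups did not overlap, and PBS replicates 4 and 5 were again the lowest. The log2 fold change was 1.87 (SE 0.248), number 11 in order from the highest.

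Clock, the other partner of Arntl, whose RNA is known to cycle weakly, was the flattest of the 4 higher genes (ENSMUSG00000029238.11, chromosome 5, 76209868 to 76304792, minus strand). PBS replicates 1 to 5 held 105, 113, 108, 87.9 and 94.0 CPM. The 4FM3 replicates 1 to 5 held 137, 127, 162, 127 and 128 CPM. The groups did not overlap, with 4FM3 replicate 3 standing above the rest of its group. The log2 fold change was 0.42 (SE 0.0883), against 2.19 for Arntl, and it was 0.24 with library size alone as scaling.

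Nfil3, also called E4BP4, encodes the repressor at D-boxes (ENSMUSG00000056749.7, chromosome 13, 52967209 to 52981073, minus strand). PBS replicates 1 to 5 held 6.12, 5.03, 4.83, 6.84 and 6.83 CPM. The corresponding 4FM3 values were 21.8, 21.2, 17.1, 13.6 and 13.6 CPM. The groups lay wholly apart, and the spread within PBS was narrow, 1.42-fold from the lowest to the highest library. Replicates 4 and 5 were the lowest in 4FM3 but the highest in PBS, unlike Arntl. The log2 fold change was 1.56 (SE 0.171).

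Per3, the PER paralog that the mouse clock can run without, was the member with the cleanest separation on the low side (ENSMUSG00000028957.12, chromosome 4, 151003652 to 151044665, minus strand). PBS replicates 1 to 5 held 32.3, 32.7, 39.99, 49.3 and 45.2 CPM. The 4FM3 libraries held 9.05, 10.3, 8.97, 13.7 and 12.1 CPM. Every 4FM3 library lay below every PBS library, and replicates 4 and 5 were the highest of both groups. The means were 39.9 ± 7.51 and 10.8 ± 2.06 CPM (SD, n = 5 each), a log2 fold change of -1.88 (SE 0.153).

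Per2, a repressor needed for stable rhythms in mice, was low in 4 of the 5 4FM3 libraries (ENSMUSG00000055866.9, chromosome 1, 91415982 to 91459324, minus strand). PBS replicates 1 to 5 held 27.9, 39.1, 36.6, 61.0 and 59.1 CPM. In the 4FM3 group, in the same order of numbers, it was 6.44, 8.76, 10.4, 10.5 and 33.1 CPM. Replicate 5 of 4FM3 lay inside the PBS range, and the other 4 lay below it. The log2 fold change was -1.68 (SE 0.436), and -2.31 without that library.

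Per1, a repressor that also responds within hours to light, hormones and stress in mice, had the widest spread of the 9 (ENSMUSG00000020893.17, chromosome 11, 69095217 to 69109960, plus strand). PBS replicates 1 to 5 held 55.2, 129, 99.9, 141 and 114 CPM. In 4FM3 replicates 1 to 5 the values were 11.04, 22.04, 25.6, 45.8 and 99.4 CPM. The highest 4FM3 library was 9.004-fold above the lowest of its group, and it lay inside the PBS range. The log2 fold change was -1.40 with an SE of 0.530, and -2.04 without 4FM3 replicate 5.

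The Cry genes, which encode the CRY1 and CRY2 repressors that bind the CLOCK and BMAL1 pair directly, differed least. Cry1 (ENSMUSG00000020038.10, chromosome 10, 85131700 to 85185064, minus strand) held 7.55, 10.1, 9.53, 13.7 and 14.2 CPM in PBS replicates 1 to 5. In 4FM3 replicates 1 to 5 it held 11.7, 11.6, 12.2, 14.8 and 9.39 CPM. The groups overlapped throughout, and the log2 fold change was 0.12 (SE 0.177) and turned to -0.06 with library size alone as scaling. Within PBS, replicates 4 and 5 were the highest for Cry1, as they were for Per2 and Per3.

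Cry2 (ENSMUSG00000068742.11, chromosome 2, 92403646 to 92434043, minus strand) held 32.4, 43.4, 40.5, 47.0 and 37.5 CPM in PBS replicates 1 to 5. The 4FM3 replicates 1 to 5 held 28.2, 36.2, 34.9, 39.8 and 28.04 CPM. The 4FM3 values lay toward the low side of an overlapping range, with a log2 fold change of -0.26 (SE 0.12). A processed transcript on the opposite strand shares 4.67% of the exonic bases of Cry2, and its mean level was 0.0130 CPM.

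Per length of exon, the order of the members differed between the groups. In PBS, Per1 stood at 19.1 ± 5.90 CPM per kilobase, followed by Per2 (7.64 ± 2.50), Clock (7.39 ± 0.749), Cry2 (6.35 ± 0.881), Per3 (4.15 ± 0.782), Cry1 (3.29 ± 0.849), Nfil3 (2.93 ± 0.474), Arntl (0.814 ± 0.264) and Npas2 (0.589 ± 0.246; SD, n = 5 throughout). The values of neighbours in this order overlapped, except those of Cry2 over Per3 and of Nfil3 over Arntl. In 4FM3, Clock came first at 9.91 ± 1.09 CPM per kilobase, then Nfil3 (8.62 ± 1.96), Per1 (7.24 ± 6.23), Cry2 (5.29 ± 0.816), Arntl (3.73 ± 0.809), Cry1 (3.57 ± 0.579), Per2 (2.36 ± 1.86), Npas2 (2.17 ± 0.310) and Per3 (1.13 ± 0.214). There the values of every pair of neighbours overlapped except those of Npas2 over Per3. Arntl and Npas2 were thus the 2 lowest members in PBS, and Per3 was the lowest in 4FM3. Lengths are those of all annotated exons of a gene joined, so a transcript that uses fewer of them is understated.

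Ratios between members within 1 library do not depend on how libraries are scaled. The log2 ratio of Arntl counts to Per3 counts was -2.07, -1.96, -2.69, -3.70 and -3.33 in PBS replicates 1 to 5. In 4FM3 replicates 1 to 5 it was 1.79, 1.78, 1.69, 0.90 and 0.66. The groups were 4.11 log2 units apart on average, and the gap between the nearest libraries, from -1.96 to 0.66, was wider than the range within either group. For Per2 the mean difference of the ratio was 4.13 and for Per1 3.96, and in both the groups still did not overlap, since 4FM3 replicate 5, at -0.78 for Per2 and -2.37 for Per1, lay above the highest PBS library, at -1.86 and -2.85. The ratio of Arntl to Cry1 differed by 2.09 and that to Cry2 by 2.50. The ratio to Npas2 differed by 0.25 and that to Nfil3 by 0.69, and for both the groups overlapped. These are differences between libraries in a ratio, and the sign of a single ratio also reflects the lengths of the 2 genes.

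**Figure D2:**
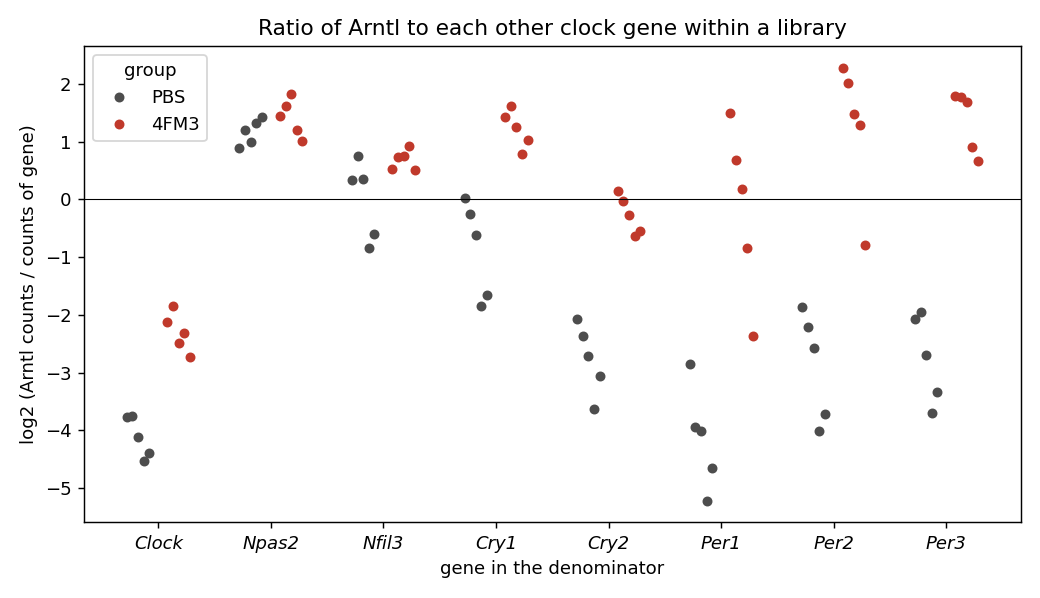
The log2 ratio of Arntl counts to the counts of each other core clock gene, within each library; each dot is a library. The PBS and 4FM3 dots lie apart for Clock, Cry1, Cry2, Per1, Per2 and Per3, and overlap for Npas2 and Nfil3.

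Libraries of 1 group also differed from each other in the clock genes. In PBS, replicates 4 and 5 had the lowest Arntl, Npas2 and Clock and the highest Per2, Per3 and Cry1. In 4FM3, replicates 4 and 5 had the lowest Arntl and Nfil3 and the highest Per1, Per2 and Per3. Other members did not repeat the PBS order there. Npas2 was lowest in 4FM3 replicate 3 and Clock in 4FM3 replicate 2. Cry1 was highest in 4FM3 replicate 4 and lowest in 4FM3 replicate 5. From the lowest to the highest library the PBS values spanned 2.22-fold for Arntl, 2.74-fold for Npas2 and 2.19-fold for Per2. Over deviations from the group means in all 10 libraries, the Pearson correlation of Arntl was 0.82 with Npas2, -0.82 with Per3, -0.80 with Per2 and 0.07 with Nfil3, as a description of libraries that share depth and tissue makeup. Between Per1 and Per2 it was 0.90. The replicate numbers do not order the libraries, and the labels do not say whether they pair libraries across the groups.

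**Figure D3:**
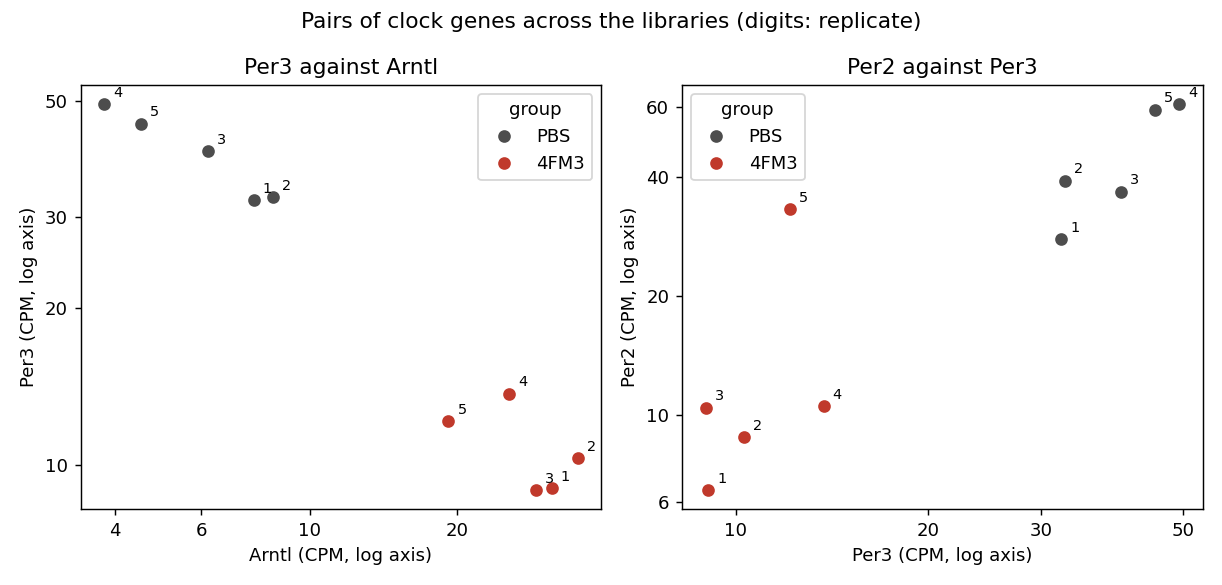
Per3 against Arntl (left) and Per2 against Per3 (right) in each library, in CPM on log axes, with digits for replicates. The PBS libraries lie at low Arntl and high Per3 and the 4FM3 libraries at the opposite corner, and 4FM3 replicate 5 has a Per2 level of 33.1 CPM at a Per3 level of 12.1 CPM.

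The level of Per1 and Per2 in 4FM3 replicate 5 stood beside a set of genes induced by glucocorticoid hormones, which in mice also raise Per1 directly. Of 15 genes listed as glucocorticoid-induced, 14 were highest in this library within the 4FM3 group, against 23.3% of all tested genes, and 10 were its highest of all 10 libraries, against 7.14%. Fkbp5, a cochaperone of the glucocorticoid receptor, stood at 99.7 CPM there, against 20.97 to 28.04 in the other 4FM3 libraries and 27.5 to 62.3 in PBS. Zbtb16 stood at 247 CPM against 62.1 to 79.5 and 77.0 to 136, and Tsc22d3 at 243 CPM against 94.2 to 117 and 124 to 228. These 3 genes were named after their values were seen. The list itself was written with earlier results of these data known, so its counts are a description. The same library had the highest fibroblast marker sum of its group (6814 CPM). Replicate 2 of 4FM3 stood near it at 6475 CPM, and the others ran from 3924 to 4546 CPM. Replicate 5 also had the highest sum of 4 atrial markers in its group (2524 CPM, against 661 to 1499 CPM in the other 4FM3 libraries). All 4FM3 libraries lay below the PBS range of the atrial sum, 3048 to 4007 CPM, and 1 of the 4 atrial markers passed the test, as lower. The part of that difference in the clock values was not tested. The part of hormone signals in the Per values was not tested. Across the groups 2 of the 15 genes of the glucocorticoid list were higher and 2 lower, beside 20.9% and 22.1% of all tested genes, and their median log2 fold change was -0.06, beside -0.03. Without 4FM3 replicate 5, 5 of the 15 were lower, and 1 was lower when any of PBS replicates 2 and 5 or 4FM3 replicates 1 to 4 was left out.

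The 4 genes of the list with the smallest p were Pdk4, Nfkbia, Cebpd and Cdkn1a. Pdk4, a kinase that turns down pyruvate oxidation, went from 134 ± 36.5 to 329 ± 40.3 CPM (SD, n = 5 each; edgeR adjusted p = 0.000442). Nfkbia, an inhibitor of NF-kappaB, was 1.48-fold lower (adjusted p = 0.0115) and Cebpd, a transcription factor gene, 1.90-fold lower (adjusted p = 0.0242), both with overlapping groups. Cdkn1a, the p21 inhibitor of the cell cycle, was 1.97-fold higher (adjusted p = 0.0373), with 86.9 CPM in 4FM3 replicate 5 and 24.7 to 37.4 CPM in the other 4 libraries. Cdkn1a did not pass when any of PBS replicates 1 to 5 or 4FM3 replicate 1 was left out. Nor did Cdkn1a pass with library size alone as scaling, with no filter on low counts or with limma-voom. Cebpd did not pass when any of PBS replicates 2 and 5 or 4FM3 replicates 1 to 4 was left out, or with no filter on low counts.

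The second loop and the output regulators were lower in 4FM3 as a rule. Of 11 genes listed, all 11 were tested and 9 fell. The median of their log2 fold changes was -0.68 beside -0.03 for all tested genes, of which 22.1% fell and 20.9% rose. The 5 values of each group lay wholly apart for 7 of them, each lower, beside 13.4% of all tested genes. This list was written with earlier results of these data known, so its count is a description. The count that fell was lowest, 7, without 4FM3 replicate 1, and it was 8 when PBS replicates 2 and 3 were both left out.

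Both REV-ERB genes, whose proteins repress Arntl at the RORE, fell. Nr1d1 averaged 153 ± 20.4 CPM in PBS and 98.7 ± 3.14 CPM in 4FM3 (SD, n = 5 each), a log2 fold change of -0.63 (SE 0.0854, edgeR adjusted p = 0.000279). Nr1d2 averaged 202 ± 13.5 and 126 ± 12.9 CPM, 1.60-fold lower (adjusted p = 0.000237). The 4FM3 libraries lay between 95.4 and 104 CPM for Nr1d1, a narrow range beside 125 to 177 CPM in PBS. Of the ROR genes, whose proteins activate at the same element, Rora fell 1.34-fold (edgeR adjusted p = 0.000307), and Rorb, near 5 CPM, did not pass (log2 fold change 0.12, SE 0.219, adjusted p = 0.679) and turned to -0.05 with library size alone and to -0.03 without 4FM3 replicate 2.

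The D-box activators, all 3, fell. Dbp, the member of this family with the strongest daily cycle, averaged 114 ± 15.6 CPM in PBS and 32.2 ± 8.36 CPM in 4FM3 (SD, n = 5 each), a log2 fold change of -1.82 (SE 0.161, edgeR adjusted p = 0.000211). Tef fell 1.68-fold (adjusted p = 0.000321) with groups apart, and Hlf 1.83-fold with overlapping groups (adjusted p = 0.0232). PBS replicate 4 was the highest library for all 3, at 141 CPM for Dbp, 315 CPM for Tef and 61.3 CPM for Hlf. Hlf did not pass with no filter on low counts or when 1 of PBS replicate 5 and 4FM3 replicates 1, 2, 3 and 5 was left out.

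The other 3 repressors on the list, Ciart, Bhlhe41 and Bhlhe40, fell. Ciart, also called CHRONO, averaged 5.71 ± 1.67 CPM in PBS and 1.72 ± 0.443 CPM in 4FM3 (SD, n = 5 each), 3.30-fold less (edgeR adjusted p = 0.000376). Bhlhe41 fell 1.83-fold (adjusted p = 0.000271) and its paralog Bhlhe40 fell 1.32-fold (adjusted p = 0.0198), the latter with overlapping groups. Bhlhe40 did not pass without 4FM3 replicate 1 (log2 fold change -0.35) or without PBS replicates 2 and 3 together (-0.44). Of the genes named from this list and the core loop, all but Rorb and Cry1 kept their sign under every alternative tried.

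**Figure D4:**
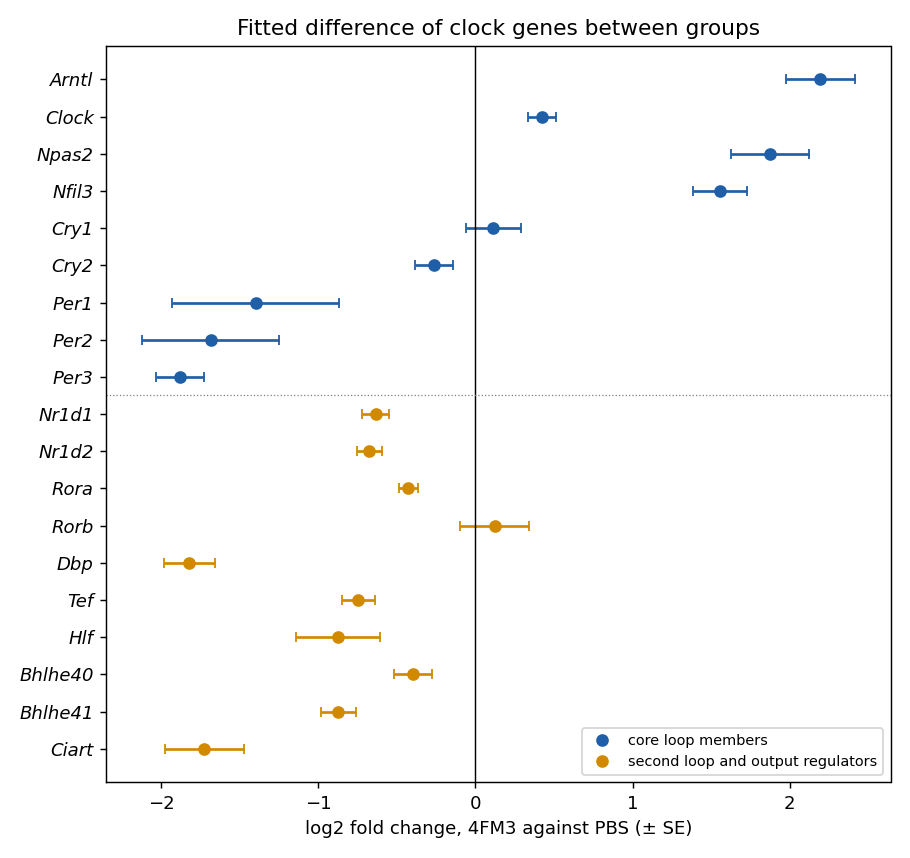
Fitted log2 fold change of 4FM3 against PBS with its SE, for the 9 core loop members and 10 of the second loop and output regulators. Arntl, Npas2 and Nfil3 lie between 1.56 and 2.19, and Per1, Per2, Per3, Dbp and Ciart between -1.40 and -1.88.

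**Figure D5:**
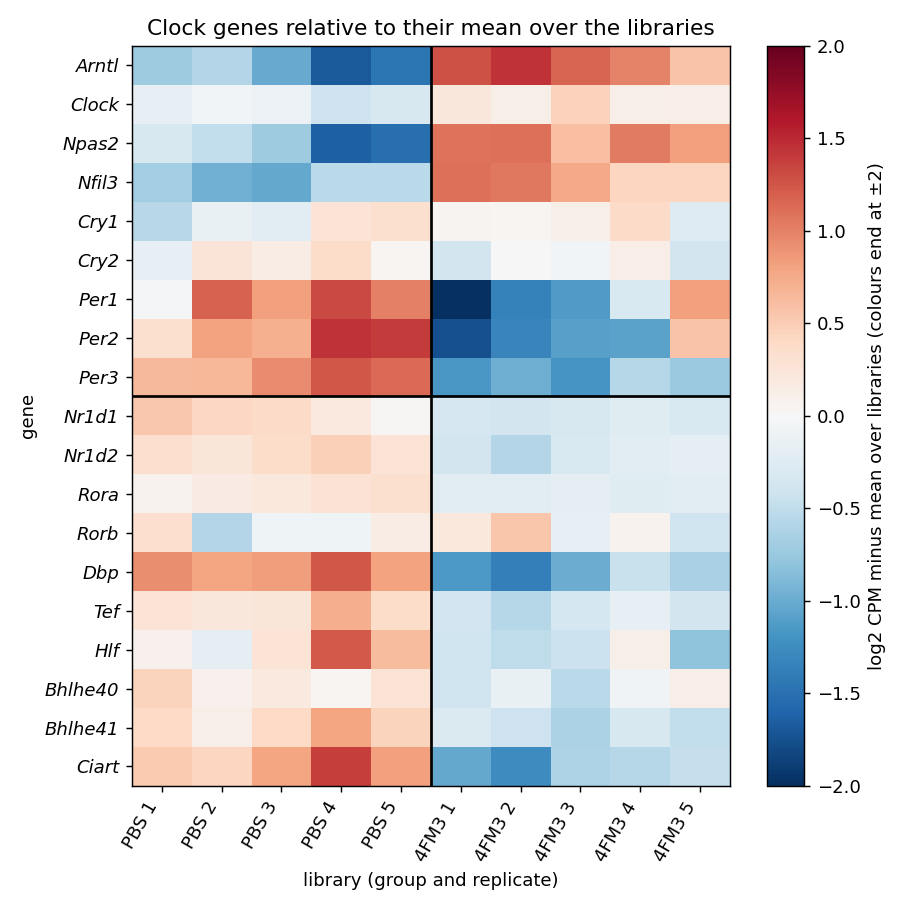
Log2 CPM of the clock genes described in each library, minus the mean of that gene over the 10 libraries; colours end at 2 units above or below. Arntl, Npas2 and Nfil3 are above their mean in all 4FM3 libraries and Dbp, Ciart and Per3 below it, while Per1 and Per2 in 4FM3 replicate 5 are above theirs.

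Of 25 kinases, ubiquitin ligases and cofactors that act on clock proteins, 6 rose, 2 fell and 17 did not pass, beside 20.9% of all tested genes higher and 22.1% lower, with a median log2 fold change of -0.04 and a range from -0.47 to 0.62. The 4 with the smallest p rose: Prkaa2, a catalytic subunit of the AMP-activated kinase (1.54-fold, edgeR adjusted p = 0.000626), the ligase scaffold gene Cul4a (1.25-fold, adjusted p = 0.00162), and the casein kinase 2 genes Csnk2b (1.32-fold, adjusted p = 0.00401) and Csnk2a1 (1.22-fold, adjusted p = 0.00442). Csnk1d, a kinase of PER proteins, and Rack1 were the 2 that fell, by 0.19 and 0.17 on the log2 scale (adjusted p = 0.0433 and 0.0315), and they are named because the count is small. No gene of the list was lower when any of PBS replicates 2 to 5 or 4FM3 replicates 1, 3 and 4 was left out. The DESeq2 scaling of the same test left no gene of this list as lower, with 3 at an unadjusted p under 0.05, and the DESeq2 Wald test left 1. With library size alone, 13 fell and 3 rose, so the split of this list follows the scaling, which moved the median of all genes from -0.03 to -0.20.

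A list of genes known to cycle with the clock in the heart and other mouse tissues held 20 symbols, of which 1, an older name of Ciart, had no row. Of the 19 tested 9 rose, 1 fell and 9 did not pass, beside 20.9% of all tested genes higher and 22.1% lower, with a median log2 fold change of 0.26 beside -0.03. With library size alone as scaling, 6 rose and 5 fell. The 1 that fell was Tspan4, a tetraspanin gene that cycles in many mouse organs, which averaged 52.3 ± 8.85 CPM in PBS and 20.6 ± 4.17 CPM in 4FM3 (SD, n = 5 each; 2.53-fold less, edgeR adjusted p = 0.000224). Besides Pdk4, those with the smallest p that rose were Kcnip2, a subunit of the transient outward potassium channel that cycles in mouse heart (1.66-fold, adjusted p = 0.000698), and Bdh1, an enzyme of ketone use (1.55-fold, adjusted p = 0.000716). Both are also abundant in cardiomyocytes, whose 8 markers rose in the same libraries, and the part of that shift was not tested. In the same libraries all 8 fibroblast, all 4 smooth muscle and 5 of 7 macrophage markers fell, while 4 of 7 endothelial markers rose. The part of these shifts in the fall of Tspan4 was not tested either. Without 4FM3 replicate 5, 4 genes of the list fell and without 4FM3 replicate 4, 2 fell.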

How the data were processed

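The left ventricular RNA of 10 mouse libraries was depleted of ribosomal RNA and made into strand-preserving libraries, per the labels' protocols. The build was mm10, per the submitters' processing notes; the aligner was not given in the sources used here, nor were the counter and annotation. The deposited counts are whole-number reads per gene. Per the file headers the authors also gave a normalized signal, equal to the count times 1 factor per library (0.931 to 1.11), and log2 of that signal plus 1; both were only checked against the counts. In 26 rows a date stands in place of a symbol; they hold 0.131% to 0.161% of the counts, stayed in the fit and are not named.

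Counts were fitted with edgeR 4.0.16 in R 4.3.3 (filterByExpr, TMM, robust quasi-likelihood test, two-sided, Benjamini-Hochberg over 12906 genes, threshold 0.05). DESeq2 1.42.0 and limma 3.58.1 served as alternatives, and the fit was tested on simulated data. The log2 CPM used for correlations had a prior count of 2. Positions and exon lengths are from GENCODE M21. The members and all lists were chosen with earlier results of these data known. Named genes are the members, the second loop genes, the 4 of each other list with the smallest p, and the 10 genes most like Arntl and Per3 each; exceptions are marked. Some genes under this rule are not reported here.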

Additional observations from a re-analysis of the deposited data

Results flagged for a closer look

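In a group of 5 libraries, a library was marked when its gap to the nearest other exceeded 0.71 of the group's range (Dixon's test). Of 62 groups of values screened, 6 were marked, and chance marks about 1 in 20. Among the members these were Per2 in 4FM3 replicate 5, the highest of its group at 33.1 CPM, and Clock in 4FM3 replicate 3, the highest at 162 CPM. Replicate 5 of 4FM3 was also the highest for Cdkn1a (86.9 CPM) and Cebpd (42.9 CPM). PBS replicate 4 was the highest for Dbp (141 CPM) and Tef (315 CPM), the library with the lowest Arntl.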

How the results depend on the processing

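The count of members higher was 4 under all 18 alternatives, and the fitted log2 fold changes ranged from 2.02 to 2.42 for Arntl, 1.70 to 2.09 for Npas2, 1.38 to 1.64 for Nfil3, 0.24 to 0.57 for Clock, -2.05 to -1.78 for Per3, -2.44 to -1.50 for Per2 and -2.04 to -1.16 for Per1. With library size alone 4 members were lower, Cry1 turned to a log2 fold change of -0.064 and Rorb to -0.050, 1540 genes rose and 4967 fell, 3 kinase-list genes rose and 13 fell, 5 rhythmic output genes fell and 1 glucocorticoid gene rose. With DESeq2 size factors 0 kinase-list genes fell, and with the DESeq2 Wald test 1. With no filter on low counts 0 kinase-list genes fell (3 at an unadjusted p under 0.05 in each of these edgeR fits with 0), and 1 glucocorticoid gene rose and 1 fell. With limma-voom 1 glucocorticoid gene rose. Over all tested genes, same-numbered libraries did not deviate together (r from -0.04 to 0.06, 1 of 5 matching best). This cannot exclude a pairing, since one that touched few genes would hardly move an r over all of them. The main fit treated the libraries as unpaired. With the replicate block 4 members and 3 rhythmic output genes were lower.

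Without PBS replicates 2 and 3 together 3521 genes passed, 1668 of them lower, 0 kinase-list genes fell (2 unadjusted), 1 glucocorticoid gene rose and 0 fell (2 unadjusted), and Rorb stood at -0.042. Without those and 4FM3 replicates 2 and 5, 1 kinase-list, 4 rhythmic output and 4 glucocorticoid genes fell and Rorb stood at -0.10. With 1 library left out at a time, members lower numbered 2 to 4, kinase-list genes lower 0 to 2, rhythmic output genes lower 1 to 4, and glucocorticoid genes higher 1 to 2 and lower 1 to 5; Rorb ranged from -0.028 (without 4FM3 replicate 2) to 0.23. The ratio of Arntl to Per3 then differed by 3.88 to 4.31. By Spearman's rho 3 of the 10 genes chosen for likeness to Arntl and 5 of the 10 for Per3 were chosen again. The causes were not tested. The lowest member count was 12 in a library, for Npas2 (SE 0.248), while the SE was largest for Per1 (0.53) and Per2 (0.436), whose libraries spread most.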

Other observations

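The genes whose deviations from the group means followed Arntl or Per3 most closely were named among 10527 genes with a mean of at least 5 CPM. With so many genes and 10 libraries, high values arise readily, and they are given as a description with no test. For Arntl the highest Pearson values were those of Glipr2 (0.87), Nubp2 (0.87), Rfx5 (0.86), D11Wsu47e (0.86) and Sigirr (0.85), and the lowest those of Fbxo38 (-0.90), Foxo3 (-0.89), Bub3 (-0.88), Sult1a1 (-0.88) and Rhobtb1 (-0.88). For Per3 the high end held Arhgap21 (0.93), Por (0.92), Efemp2 (0.92) and Fbxo38 (0.90), and the lowest were Neu1 (-0.94), Dscr3 (-0.94), Zfp180 (-0.91), Sirt2 (-0.90) and Sigirr (-0.90). Fbxo38 and Sigirr stood at opposite ends of the 2 lists. Of the genes named here only Por, the electron donor of cytochrome P450 enzymes, was in any of the clock lists used here.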
